A study of Homo sapiens with 76 samples.

Results

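The replication-dependent histone genes were taken as all rows of the count table whose symbol begins with HIST1H, HIST2H, HIST3H or HIST4H, leaving out the pseudogene HIST1H3PS1. The rule gave 38 genes of the 17513 gene rows: 4 of linker histone H1, 11 of H2A, 11 of H2B, 4 of H3 and 8 of H4. HIST2H2BC, 1 of the 11 H2B genes and typed as a transcribed pseudogene in GENCODE 29, stayed in. By cluster, as the symbols give it, 30 belonged to cluster 1, 5 to cluster 2, 2 to cluster 3 and 1 to cluster 4. The rule used names and no measured value. All 38 had at least 1 molecule counted, as did 16918 of the 17513 gene rows, and no filter on low values was applied to these counts.

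The cells were 76 single cells of HEK293, an established line of human embryonic kidney origin carrying adenovirus sequences. They were grown in DMEM with fetal calf serum, untreated, and carry 1 run name in their titles. Each was caught in a chamber of a 96-chamber microfluidic chip and broken open in the presence of 20000 ERCC spike-in molecules, a set of synthetic transcripts added in equal amount to every cell. cDNA was primed with oligo-dT and tagged at the 5′ end of the transcript with a unique molecular identifier (UMI), a short random sequence by which PCR copies of 1 molecule are counted once, so counts of genes of unequal length can be set side by side. The labels name no compared group and no separate cultures, so the cells form 1 sample, no test between groups was made, and each value after ± is an SD over the 76 cells.

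Nucleosomes wrap DNA around an octamer of the core histones H2A, H2B, H3 and H4, and linker histone H1 binds the DNA between them. The replication-dependent genes supply most of this protein when chromosomes are copied, and their messenger RNA accumulates in S phase and is degraded at its end. They have no introns, lie in clusters, and their transcripts end after a conserved stem-loop, bound by the stem-loop binding protein SLBP, in place of a poly(A) tail. Some of these genes also give polyadenylated transcripts. Since cDNA was primed with oligo-dT, the UMIs count molecules so primed, and how far these stand for the whole histone mRNA of a cell was not tested.

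The core promoters are shown because their short motifs follow the histone classes by which the counts are ordered below. RefSeq windows on build GRCh38.p14, from 250 bases before to 50 bases after the start, were matched for 33 of the 38 genes, and windows of HIST1H2AH, HIST1H3J, HIST1H4A, HIST1H4C and HIST2H2BC were not used here. The counts themselves were made on hg19, so these coordinates serve only to place the sequences. Each line gives the last 150 bases before the annotated start, 5′ to 3′ on the strand of the gene: HIST1H4E at chr6:26204460-26204609 (plus strand), HIST1H1E at chr6:26156179-26156328 (plus), HIST1H3B at chr6:26032100-26032249 (minus), HIST2H2AC at chr1:149886768-149886917 (plus) and HIST1H2BK at chr6:27146859-27147008 (minus, the first of its 2 windows). Capitals mark GGTCCG (the core of the site read by the H4 activator HINFP), AAACACA (the H1 box), CCAAT (marked on both strands, so also as ATTGG), ATTTGCAT (the octamer read by POU2F1) and TATAAA.
HIST1H4E: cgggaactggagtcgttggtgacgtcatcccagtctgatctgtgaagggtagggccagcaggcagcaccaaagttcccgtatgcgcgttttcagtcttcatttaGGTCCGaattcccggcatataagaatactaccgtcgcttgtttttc
HIST1H1E: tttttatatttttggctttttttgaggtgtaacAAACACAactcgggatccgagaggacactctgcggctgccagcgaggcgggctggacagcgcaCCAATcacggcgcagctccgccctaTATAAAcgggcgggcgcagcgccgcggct
HIST1H3B: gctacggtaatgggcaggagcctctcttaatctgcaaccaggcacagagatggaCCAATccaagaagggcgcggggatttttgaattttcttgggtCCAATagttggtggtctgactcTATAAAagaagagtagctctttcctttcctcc
HIST2H2AC: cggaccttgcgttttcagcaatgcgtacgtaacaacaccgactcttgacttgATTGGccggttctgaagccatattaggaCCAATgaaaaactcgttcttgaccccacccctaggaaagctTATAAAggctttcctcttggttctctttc
HIST1H2BK: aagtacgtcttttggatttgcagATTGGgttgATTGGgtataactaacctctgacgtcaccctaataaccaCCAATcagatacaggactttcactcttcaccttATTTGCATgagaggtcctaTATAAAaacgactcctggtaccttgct

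Every motif was searched on both strands of the whole window. GGTCCG stood in 6 of 6 H4 windows, 44 to 47 bases before the start, in 1 of 10 H2A and 1 of 10 H2B windows, and in 11.2% of the 27305 windows of all genes. AAACACA stood in 4 of 4 H1 windows, 105 to 119 bases before the start, and in 1 of 10 H2A windows, against 5.76% of all windows. CCAAT stood in 4 of 4 H1, 10 of 10 H2A, 10 of 10 H2B and 3 of 3 H3 windows and in 0 of 6 H4 windows, against 35.7% of all. The octamer stood in 7 of 10 H2A and 6 of 10 H2B windows and in 0 windows of H1, H3 and H4, against 1.80% of all. TATAAA stood in 23 of 33 windows, against 11.95% of all. Neighbouring H2A and H2B genes that are read in opposite directions share part of their windows, so a motif between them can count for both. A match is a description of letters and not of a bound site.

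The stem-loop is shown because it marks the end of the non-polyadenylated form. The transcript models of GENCODE 29 (GRCh38) were searched for a stem of 6 paired bases around a loop of 4 bases. The stem had to open with GG followed by only C or T, and the loop with TT. A match was found for 17 of 38 genes, in 3 forms. In lower case they read:
H4 form: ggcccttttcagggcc
H2A, H2B and H3 form: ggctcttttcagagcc
H2B form: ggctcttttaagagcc
The first was carried by 5 H4 genes, the second by 10 genes of H2A, H2B and H3, and the third by HIST1H2BC and HIST1H2BD. Of the 17 genes, 11 had a model that runs at least 100 bases past the stem-loop, among them HIST1H4E (1022 bases), HIST1H2AC (1128 bases), HIST2H2BE (1729 bases) and HIST3H2A (390 bases). The other 21 genes had no match, many with models that stop at or near the end of the coding sequence. The HIST1H4C model of 435 bases held no match.

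Depth ranged from 7305 to 43392 endogenous UMIs per cell with a median of 20966, and spike-in UMIs from 1390 to 3132 with a median of 2198.5. The highest correlation between any 2 cells was 0.873, and 0 pairs held identical values. The line was checked with 6 HEK293 markers, all analysed, of which 4 had a mean of at least 1 UMI. Of the 3 most counted, the neuronal hydrolase gene UCHL1 and the filament gene VIM were each seen in 70 of 76 cells, and NEFM in 49, as is known for HEK293. The others, NEFL, KRT8 and KRT18, had fewer UMIs. Of blood markers 2 of 6 were analysed, with 16 UMIs in all (0 to 3 per cell), of fibroblast and muscle markers 4 of 6, with 18 UMIs (0 to 3), and of liver markers 2 of 5, with 1 UMI. FGG was counted in 0 of 76 cells, and by the limit of 3 counts this allows up to 3.95% of cells with a UMI, which is no limit on cells that hold its transcript.

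Of the UMIs of the 38 genes, almost all were HIST1H4C. The 38 genes gave 12021 UMIs, or 0.748% ± 0.564 of a cell's UMIs. HIST1H4C, an H4 gene of cluster 1, gave 11469 of them, which is 95.4% (exact binomial 95% interval 95.02% to 95.8%, for counting error only, as for every interval here). It was the ninth most abundant of all genes by mean UMIs, and gave 122 times as many UMIs as the next of the 38, HIST1H2BK, with 94. Replication-independent histone genes, described below, are outside the 38 and gave 6937 UMIs, of which H2AFZ gave 4070. Of the UMIs of the 8 H4 genes 99.8% were HIST1H4C. Within single cells the part of HIST1H4C in the UMIs of the 38 genes was 78.9% in cell 8 at the lowest and 95.1% at the median. It was 100% at the highest, in cells 17, 48 and 65.

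HIST1H4C was seen in all 76 cells, at levels that spread widely. It gave 6 UMIs in the lowest cell (cell 48), 138 at the median and 497 in the highest (cell 55), with a mean of 151 ± 120. As a share of the cell's UMIs it ran from 0.0464% in cell 48 (exact Poisson 95% interval 0.0170% to 0.101%) through a median of 0.638% to 2.14% in cell 34 (1.88% to 2.43%), a 46.2-fold range. The quartiles were 0.176% and 1.15%. By ranges of the share, 9 cells lay under 0.1%, 12 between 0.1% and 0.2%, 9 between 0.2% and 0.4%, 11 between 0.4% and 0.8%, 30 between 0.8% and 1.6%, and 5 above 1.6%. These ranges double in width from 0.1% on, so the counts depend on that choice of ranges. Scaled by the spike-ins, and taking cellular RNA to be caught as well as spike-in RNA, the median cell held 1163 HIST1H4C molecules open to this assay (56.98 to 4292).

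**Figure D1:**
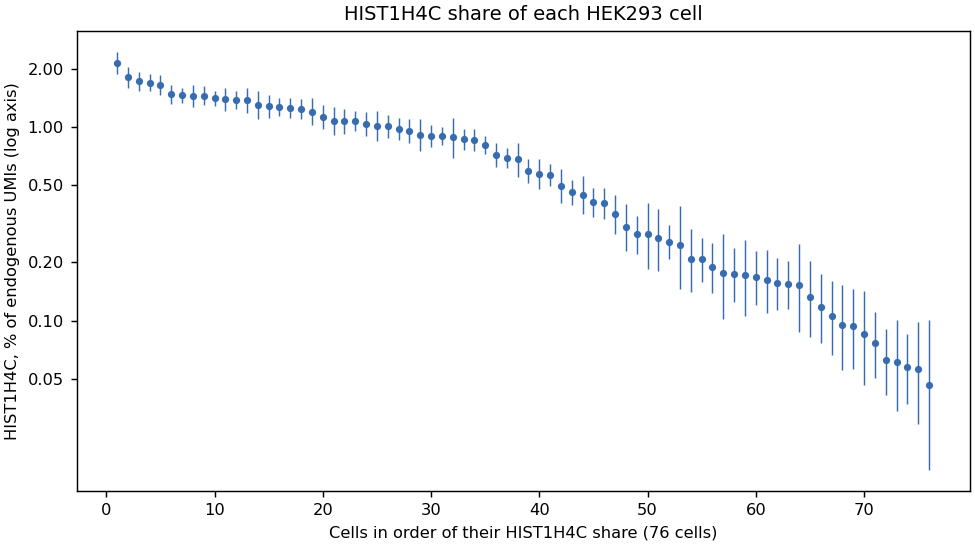
HIST1H4C as a percent of each cell's endogenous UMIs (log axis), with the 76 cells in falling order; bars are exact Poisson 95% intervals for counting error. The values run from 2.14% to 0.0464%, and the intervals of the highest and lowest cells do not meet.

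This spread was set against that of other genes by the Pearson dispersion, the squared deviation from the count expected from a cell's total divided by that expectation, which is near 1 where counting noise acts alone. HIST1H4C had a dispersion of 90.3, the highest of 2810 genes with a mean of at least 1 UMI. The highest of 36 spike-in RNAs at that mean had 2.20 and the median spike-in 1.53. Of the 38 genes 2 reached a mean of 1 UMI, and 1 of them, HIST1H4C, lay above the highest spike-in, as did 21.6% of all genes tested. HIST1H2BK, the other, had 2.09. Without the 5 shallow cells, those under 10483 UMIs, HIST1H1E reached the mean of 1 as well and, with a dispersion of 2.66, lay above the highest spike-in, so that 2 of 3 did, against 17.9% of genes. Dispersion grows with abundance, so the relative spread is also given: the squared coefficient of variation beyond counting noise was 0.527 for HIST1H4C, which ranked 445 of 2810 genes but first of the 81 genes with a mean of at least 50 UMIs. MT-CO3, a mitochondrial transcript, came next among these with 0.233, the median of the 81 was 0.0291, and the highest of 8 spike-ins at that abundance had 0.00780.

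The other 37 histone genes were sparse. Together they gave 552 UMIs, 7.26 ± 5.40 per cell, with 0 at the lowest, 6 at the median and 27 at the highest, and were seen in 73 of 76 cells. Of the 38 genes 6 had a single UMI in the whole table, 21 had at most 5, and 27 had fewer than 20, with 114 UMIs among those 27. Low counts were common in the table and not particular to these genes: 6808 of all 17513 gene rows had at least 20 UMIs. Divided by class, the 552 UMIs fell to H2A (33.7%), H1 (27.5%), H2B (25.7%), H3 (8.33%) and the 7 remaining H4 genes (4.71%).

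**Figure D2:**
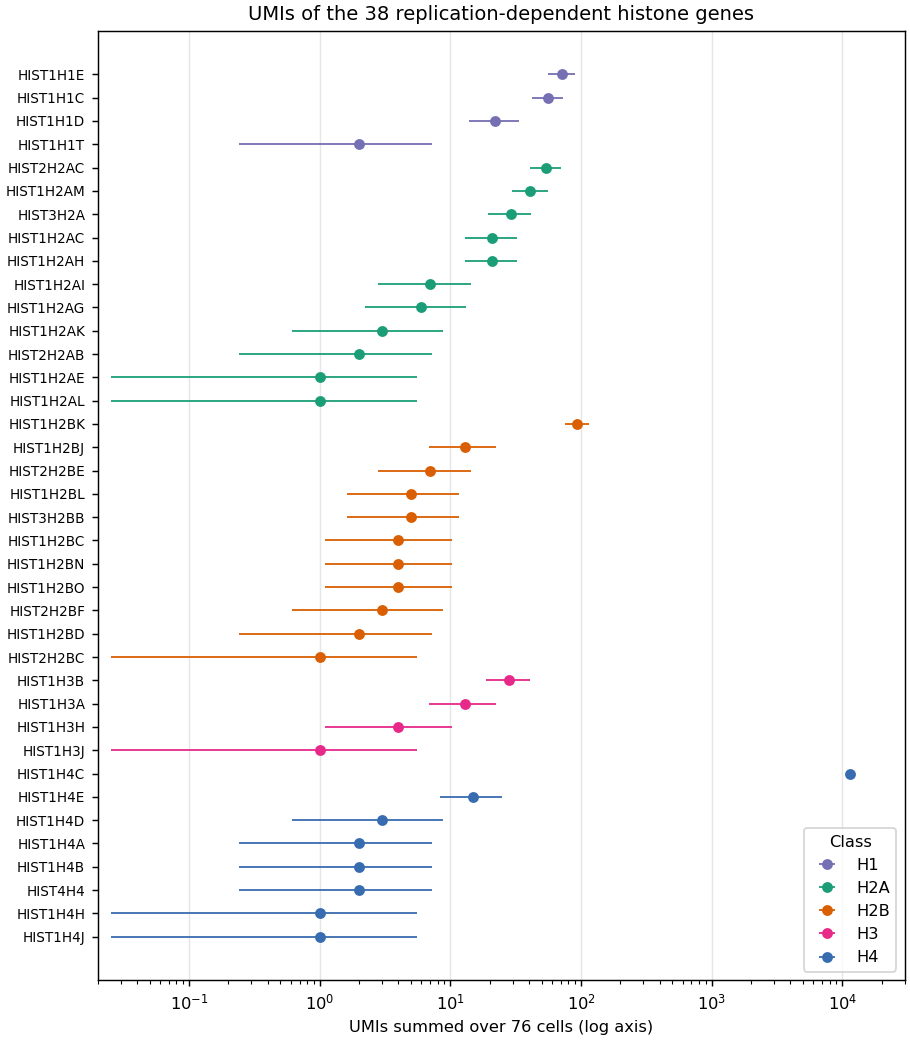
UMIs summed over 76 cells for each of the 38 histone genes (log axis), grouped and coloured by class; bars are exact Poisson 95% intervals. HIST1H4C lies at 11469, apart from the next gene, HIST1H2BK, at 94.

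Linker histone H1 genes gave 152 UMIs, seen in 45 of 76 cells, with 0 at the lowest, 1 at the median and 10 at the highest (cells 77 and 79). HIST1H1E led with 72 UMIs in 33 cells and up to 7 in cells 64 and 77. HIST1H1C gave 56 UMIs in 31 cells and HIST1H1D 22 in 10 cells. HIST1H1T, the H1 variant of the testis, gave 2 UMIs, both in cell 50.

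H2A genes gave 186 UMIs in 59 cells, with a median of 2 and up to 11 (cells 2, 5 and 55). HIST2H2AC of cluster 2 led with 54 UMIs in 36 cells, and HIST1H2AM gave 41 in 25 cells, with up to 7 in cell 55. HIST3H2A of cluster 3 gave 29 UMIs in 21 cells, and HIST1H2AC and HIST1H2AH gave 21 each, both in 13 cells. The remaining 6 H2A genes gave between 1 and 7 UMIs. The leading H2A genes thus came from 3 clusters.

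H2B genes gave 142 UMIs in 55 cells, with a median of 1 and up to 16 in cell 50. HIST1H2BK gave 94 of these, in 42 cells (55.3%, exact interval 43.4% to 66.7%), with a median of 1 and up to 9 in cell 50. HIST1H2BJ gave 13 UMIs in 6 cells, of which 7 lay in cell 50. HIST2H2BE gave 7 UMIs in 4 cells, and the remaining 8 genes between 1 and 5.

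H3 genes gave 46 UMIs in 32 cells, with a median of 0 and up to 4 (cells 26 and 84). HIST1H3B led with 28 UMIs in 23 cells, followed by HIST1H3A with 13 in 10 cells, HIST1H3H with 4 and HIST1H3J with 1. Of H4 genes other than HIST1H4C, HIST1H4E gave 15 UMIs in 11 cells, HIST1H4D 3, and HIST1H4A, HIST1H4B and HIST4H4 2 each. HIST1H4H and HIST1H4J gave 1 UMI each, so the 7 together gave 26 UMIs in 19 cells.

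Many histone genes of a class are close copies of each other, so some of these counts are uncertain. In the first 150 bases of the transcript models, 11 of the 38 genes shared a stretch of 50 bases with another of 90 histone genes searched, and 27 did not. HIST1H4C shared none. Of the leading genes, HIST1H2BK shared 30.7% of its stretches, HIST1H2AM 57.4% (with HIST1H3J), and HIST2H2AC 3.96%. HIST1H3J is of another class than HIST1H2AM, and whether their models overlap was not examined. Some models are short (381 bases for HIST1H2BK), and whether their first bases are those of the tagged 5′ end was not tested. The treatment of reads that match several genes is not given in the sources used here.

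Cells with a higher HIST1H4C share also had more UMIs of the other histone genes. Over the 76 cells, Spearman's rho between the HIST1H4C share and the summed share of the other 37 genes was 0.68 (Pearson's r of log2 values 0.70). It was 0.73 with spike-in UMIs as the scale, 0.65 in 71 cells thinned to 10940 UMIs each, and 0.68 without cell 50, which had the most UMIs of the other genes. All cells carry 1 run name, and both shares have the cell's total as denominator, so these correlations are descriptions. HIST1H4C's rho was -0.13 with the cell's endogenous UMIs, -0.24 with genes detected, -0.05 with the mitochondrial share and 0.31 with the share of ribosomal protein genes. For the other histone genes those values were -0.09, -0.13, 0.06 and 0.11. The part of the ribosomal protein share in the HIST1H4C values was not tested.

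By class, rho with the HIST1H4C share was 0.58 for H1, 0.55 for H2A, 0.37 for H3, 0.21 for the 7 other H4 genes and 0.05 for H2B. The H2B value rested on its leading gene: HIST1H2BK had -0.19, and the 10 other H2B genes, with 48 UMIs in 30 cells, had 0.30. That split was chosen after the values were seen, and no test of a difference between classes was made. Between classes, H1 and H2A had a rho of 0.39 and H1 and H3 of 0.31. The remaining pairs without H4 lay between -0.12 and 0.07, which at these counts is not read as a relation or its absence. Cluster 2 genes, with 67 UMIs, had a rho with HIST1H4C of 0.39, and cluster 3 genes, with 34 UMIs, of 0.11.

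**Figure D3:**
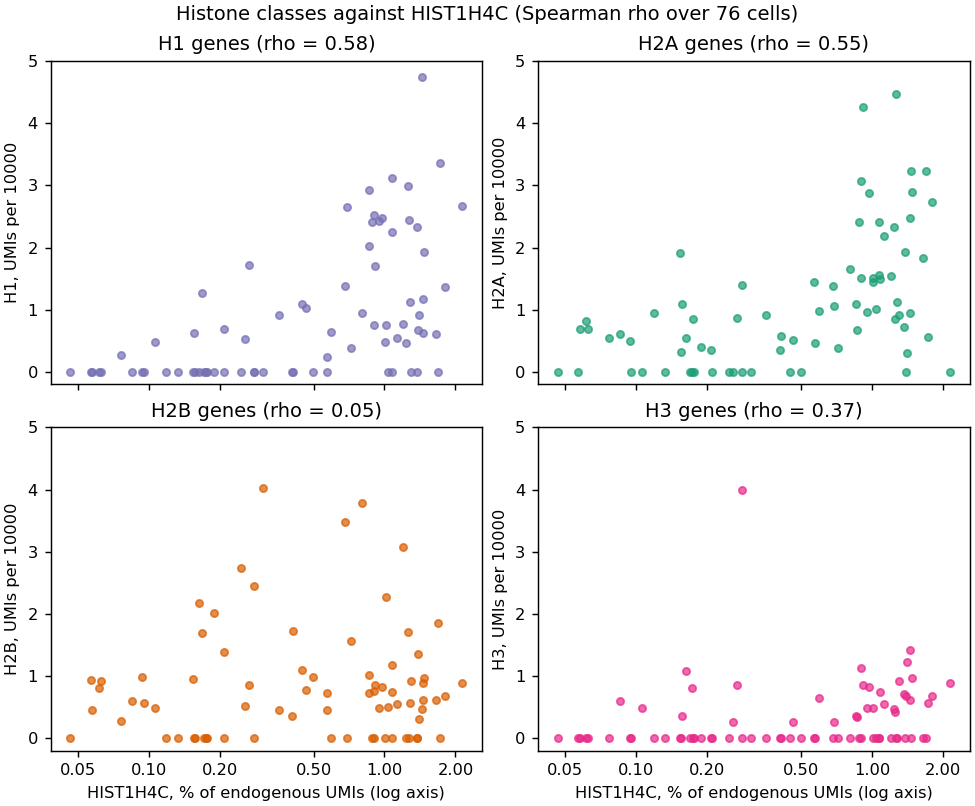
UMIs of H1, H2A, H2B and H3 genes per 10000 endogenous UMIs (vertical axes) against the HIST1H4C share of the same cell (log axis), 1 point per cell, 76 cells per panel. High values of H1 and H2A lie mostly to the right, while high H2B values lie across the range (rho 0.58, 0.55 and 0.05); the high H3 point is cell 84, 1 of the 5 shallow cells.

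Gene by gene, 10 of the 38 genes, leaving out HIST1H4C, had at least 20 UMIs. Of these 5 had a rho of at least 0.3 with the HIST1H4C share, a limit chosen after the values were seen. Of 6797 genes outside the 38, 14 did (0.206%), among them H3F3B and the ribosomal protein genes RPLP0, RPL32 and RPLP1. The 5 were HIST1H1E (0.56), HIST1H3B (0.47), HIST1H2AC (0.37), HIST2H2AC (0.37) and HIST1H1C (0.32). HIST1H2AM had 0.25, HIST1H1D 0.23, HIST1H2AH 0.10, HIST3H2A 0.04 and HIST1H2BK -0.19. The median of the 10 was 0.29, and 9 lay above 0, against a median of -0.04 with 35.2% above 0 for the 6797 genes. The highest of those 6797 was RPLP0 with 0.43, below HIST1H1E and HIST1H3B. With a limit of 0.4 the counts were 2 of 10 and 0.0147% of the other genes. At 0.3 they were 5 of 10 and 0.780% with totals free of ribosomal protein, mitochondrial and member genes, and 4 of 5 and 0.678% in thinned cells.

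Many H2A and H2B genes stand as neighbours that are read in opposite directions from the stretch between them. Of these, 8 pairs among the 38 genes had starts within 1000 bases, and in 5 of them the exact interval of the H2A part left out 50%. The H2A gene had more in HIST1H2AM and HIST1H2BO (41 against 4 UMIs, 91.1% H2A with an exact interval of 78.8% to 97.5%), HIST2H2AC and HIST2H2BE (54 against 7, 88.5%), HIST3H2A and HIST3H2BB (29 against 5, 85.3%), and HIST1H2AC and HIST1H2BC (21 against 4, 84%). The H2B gene had more in 1 pair, HIST1H2AH and HIST1H2BK (21 against 94, 18.3%, with an interval of 11.7% to 26.5%). In the other 3 pairs the interval spanned 50%. Summed over the 8 pairs, H2A genes had 182 UMIs and H2B genes 136. Both partners were seen in the same cell in 6 cells for HIST1H2AH and HIST1H2BK and in at most 2 for every other pair. HIST1H2AH and HIST1H2BK were seen in 13 and 42 cells, and the H2B gene of every other pair in at most 6. The joint number to be had from detection alone was not worked out, so these counts are not read as a relation or its absence. In 6 of the 8 pairs at least 1 partner shared a stretch of 50 bases with another histone gene, which makes their counts uncertain. The 2 pairs without one were HIST1H2AC with HIST1H2BC and HIST1H2AG with HIST1H2BJ.

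**Figure D4:**
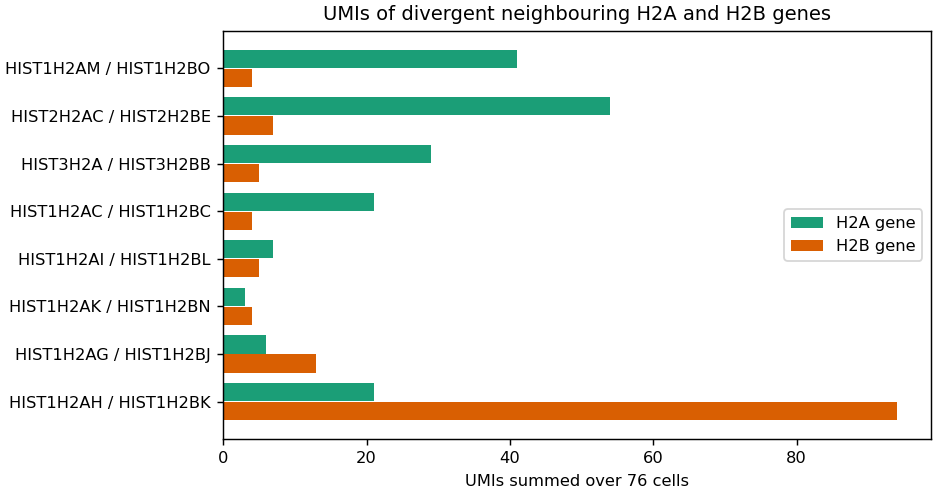
UMIs summed over 76 cells for the H2A gene (upper bar) and the H2B gene (lower bar) of 8 divergent neighbour pairs, in order of the H2A part. The H2A bar is longer in the upper 5 pairs and the H2B bar in the lower 3, of which HIST1H2AH and HIST1H2BK has 21 against 94 UMIs.

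The histone level was then set beside cell cycle genes. A list of S phase genes (42 of 43 analysed), such as the replication clamp PCNA and the helicase subunits MCM2 and MCM6, took 0.473% ± 0.157 of UMIs. Its rho with the HIST1H4C share was -0.23, and with the other histone genes -0.02. Of the 29 list genes with a mean of at least 1 UMI, 0 had a rho with HIST1H4C at or above 0.3 or at or below -0.3, where 0.427% and 1.57% of all 2808 genes at that mean did, so a count of 0 says little about the list. Their median was -0.12, against -0.03 for all genes, and 7 of the 29 lay above 0, against 38.8% of all genes. RPA2 (11.9 ± 7.95 UMIs) had -0.18, GMNN (9.43 ± 5.63), the inhibitor of origin licensing, 0.13, and PCNA (6.36 ± 5.64) -0.08. RRM2 and MCM6 were lowest with -0.29 each, and RRM1 was highest with 0.20.

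For the list of G2 and M phase genes (53 of 54 analysed, 0.450% ± 0.183 of UMIs) rho was 0.13 with HIST1H4C and 0.17 with the other histone genes. Of 24 genes with a mean of at least 1 UMI 15 lay above 0, with a median of 0.03, against 38.8% above 0 and a median of -0.03 for all 2808 genes. CDK1 (7.91 ± 6.68 UMIs), the mitotic kinase, had 0.07, CKS2 (7.75 ± 6.10) 0.13 and TUBB4B (7.51 ± 5.70) 0.13. The shares of both lists had a rho of -0.08 with each other. With spike-in UMIs as the scale, the RNA content of a cell moves both values. All 38 histone genes together then had a rho of 0.06 with the S phase list and 0.33 with the G2 and M phase list. With cell totals these were -0.23 and 0.13. The G2 and M phase value was 0.02 in thinned cells.

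**Figure D5:**
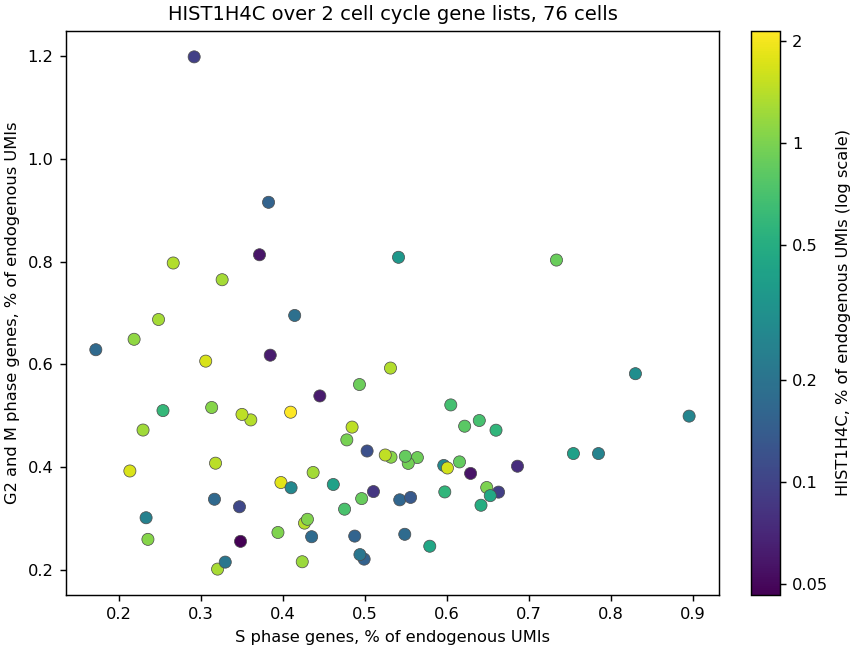
Share of S phase genes against share of G2 and M phase genes, both as percent of endogenous UMIs, 1 point per cell, coloured by the HIST1H4C share (log scale) for 76 cells. Cells of high and low HIST1H4C share lie intermixed over part of the plane, with rho of the HIST1H4C share at -0.23 (S phase) and 0.13 (G2 and M phase). Few cells of high HIST1H4C share lie at the highest S phase shares: cells 16, 61, 12, 95 and 2, the 5 highest, have from 0.256% (cell 12) to 0.898% (cell 2).

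The lists of genes that transcribe, process or carry histones each had a rho below 0 with HIST1H4C, between -0.25 and -0.20. Values below 0 were common: of all 2808 genes with a mean of at least 1 UMI, 38.8% lay above 0, with a median of -0.03. The genes of these lists at that mean had medians of -0.13, -0.12 and -0.11. They numbered 2, 10 and 9, of which 1, 3 and 2 lay above 0. The first median is thus the midpoint of YY1 and CDK2 and does not describe that list. SLBP and NASP are also in the S phase list, and these lists were not tried on the spike-in scale. Transcription factors and kinases of histone genes (10 of 10 analysed, among them NPAT, HINFP and POU2F1) gave 547 UMIs in all, a sparse count, with a rho of -0.21 with HIST1H4C. YY1 (118 UMIs) had -0.30, CDK2 (109) 0.05 and CCNE2 (75) -0.10. The list for 3′ end processing and decay of histone mRNA (20 of 21) gave 7702 UMIs and had -0.25 with HIST1H4C. It is led by SNRPE (24.3 ± 12.8 UMIs), SNRPG (20.2 ± 10.4) and SNRPB (19 ± 11.3), which also serve splicing, and its stem-loop binding protein gene SLBP (2.13 ± 2.61) had -0.19. Histone chaperones (15 of 15), led by NAP1L1 (13.3 ± 7.52), RBBP7 (6.96 ± 4.46) and NASP (5.82 ± 4.82), gave 3766 UMIs and had -0.20. With the other histone genes these 3 lists had 0.05, -0.05 and -0.08.

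Replication-independent histones are made all through the cycle from polyadenylated mRNA. Summed, they had a smaller relative spread between cells than the 38 genes summed (0.748% ± 0.564). The sum of the 38 is almost all HIST1H4C, so a sum of several genes is set against nearly a single gene. A small spread was not particular to them: the processing and decay list took 0.452% ± 0.0795, while the S phase list, at 0.473% ± 0.157, spread more. The 12 of 15 genes analysed took 0.406% ± 0.0748 of UMIs, from 0.259% to 0.707%, with a rho of 0.03 with HIST1H4C. H2AFZ, which encodes H2A.Z, gave 53.6 ± 24.9 UMIs (rho -0.05) and H3F3A 14.03 ± 9.30 (rho -0.05). H3F3B, the second gene of the same H3.3 protein, gave 11.9 ± 8.52 UMIs and had a rho of 0.34.

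Outside the 38 genes, the 5 genes with a mean of at least 1 UMI whose share was most like that of HIST1H4C over the cells were RPLP0 (rho 0.43), which encodes a ribosomal stalk protein, MRPL52 (0.39), ROMO1 (0.37), MYL12B (0.35) and H3F3B (0.34). Among the lowest were EWSR1 (-0.42) and FCF1 (-0.41). For the summed share of the other histone genes the highest were PPP1R11 (0.33), NIPA2 (0.30), PHPT1 (0.30), CAPNS1 (0.30) and WDR61 (0.29), and the lowest UBAC2 (-0.46), LTV1 (-0.40) and UXT (-0.40). No gene was in both sets of 5, which says little for sets this small out of 2808 genes. These are the extremes of 2808 genes, given as a description.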

How the data were processed

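UMIs of single HEK293 cells were deposited as whole-number raw counts of molecules for each gene and cell, in a single table with 17594 rows, per the file headers. Build hg19 (GRCh37), STAR 2.4.0a and cutadapt 1.2.1 are named, with no role, in the submitters' processing notes. The sources used here give neither the UMI counter nor the annotation nor the rule for multi-mapping reads. Labels give an N(4)H(4) tag (20736 sequences), the column names N6H4 (331776). A row called GENE, with 0.197% of all values, was left out, and 0 columns stayed unmatched.

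Shares are percent of endogenous UMIs. Correlations, dispersions and exact intervals were computed with Python 3.11.15, numpy 2.4.6, pandas 2.3.3 and scipy 1.17.1, plots with matplotlib 3.10.9, and the scripts were tested on simulated data. Cells are not replicates, so no p-value is given. The 38 members and all lists were chosen with earlier results of these data known. Named genes are all members averaging 1 UMI or more, the 3 most counted of each class and list, and the 5 highest and 3 lowest non-members by rho; other members were named after their values were seen, and 1 gene that the rule takes is not reported here. Alternatives were leaving out the 5 cells under 10483 UMIs, thinning, spike-in scaling, other totals and other minimums. Depth of 7305 to 43392 UMIs per cell leaves rare genes to counting error.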

Additional observations from a re-analysis of the deposited data

Results flagged for a closer look

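HIST1H3PS1, an H3 pseudogene that the rule leaves out, gave 7 UMIs in 6 of 76 cells, above the limit of 3 counts that a count of 0 allows. Its share had a rho of -0.05 with the HIST1H4C share.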

How the results depend on the processing

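Of 119 alternative values over 23 results, 99 stayed within the tolerance set (counting error of a share, 0.2 of a rho, 1.5 times a count), and 20 moved, of which 1 changed sign, the rho with the S phase share on the spike-in scale. The rho of H2B with H1 and with H2A, near 0, also changed sign under some alternatives, within that tolerance. Against a main 0.748%, the summed share of the 38 genes was 0.775% without the 5 shallow cells and 0.784% thinned to 10940 UMIs. It was 0.711% from UMIs summed over cells, and 1.197% with totals free of ribosomal protein, mitochondrial and member genes. The H4 share was 0.743%, 0.750%, 0.679% and 1.15% under the same 4, against 0.717%. With those reduced totals H1 took 0.0141%, H2A 0.0174%, H2B 0.0135% and H3 0.00516%, since the denominator is smaller. The HIST1H4C part of the UMIs of the 38 genes averaged 93.3% over cells, against 95.4% pooled. With at least 2 UMIs in a cell required, 20 of 38 genes counted as seen, and the share over all genes was not worked out. Without shallow cells 2 genes lay above the highest spike-in, against 1. The rho with the S phase share was 0.0606 on the spike-in scale and -0.0196 without HIST1H4C, against -0.23. For the G2 and M phase list it was 0.33 on the spike-in scale, against 0.13. The cause of these moves was not tested. Within the tolerance, the G2 and M phase rho ran from 0.0220 in thinned cells to 0.191 with the reduced totals, so it came near 0 under thinning. The count of histone genes at a rho of at least 0.3, 5 of 10, was 2 with a limit of 0.4 and 3 of 4 at 50 UMIs or more. The share of all genes above the highest spike-in, 21.6%, ran from 0.473% with no filter on the mean to 49.9% at a mean of 3 UMIs or more. No paired analysis was possible because there is 1 group. Depth limits the 27 genes under 20 UMIs to a description of single molecules.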

Other observations

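Single cells stood out among the rarer histone genes, and these cells were picked after their values were seen. Cell 50 held 27 UMIs of the other histone genes in 42334 endogenous UMIs, of which 9 were HIST1H2BK, 7 HIST1H2BJ, 4 HIST1H2AC and 2 HIST1H1T. Its 7 HIST1H2BJ UMIs were 7 of 13 in the whole table. Its HIST1H4C share of 0.805% ranked 35 of 76. Cell 84, with 10011 endogenous UMIs, held 4 H3 UMIs and 0 of H1, H2A and H2B. Cells 17, 48 and 65 held no UMI of the 37 other genes, and 17, 6 and 21 UMIs of HIST1H4C.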
